A study of Mus musculus with 28 samples.

Results

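The genes described are those that write, maintain and remove DNA methylation: the DNA methyltransferases Dnmt1, Dnmt3a and Dnmt3b with their catalytically inactive relative Dnmt3l, the maintenance factor Uhrf1, and the dioxygenases Tet1, Tet2 and Tet3. They were chosen by name as a gene family, with earlier results of these data known, and make up 8 of the 50600 rows of the expression table. UHRF1 recognises the hemimethylated DNA that replication leaves behind and brings DNMT1 there to copy the pattern, so this pair works with the replication fork. DNMT3A and DNMT3B place methyl groups on unmethylated DNA, DNMT3L stimulates them in germ cells and pluripotent cells, and the TET enzymes oxidise 5-methylcytosine as a step towards its loss. Fibroblasts that turn into induced pluripotent stem cells (iPSCs) have to lose methylation at silent pluripotency genes, and pluripotent cells are known for expressing Dnmt3b, Dnmt3l and Tet1.

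The 28 RNA-seq libraries fall into 14 groups of 2, all from mouse embryonic fibroblasts (MEFs) that the labels give as wild type and that, in the study's methods, carry a green fluorescent reporter of Oct4. Untreated MEFs and MEFs kept with SB203580, an inhibitor of the p38 MAP kinases (p38i), were measured before induction. Cells reprogrammed with Oct4, Klf4 and Sox2 (OKS) in iCD1 medium were measured on days 1, 3, 5 and 7 in 3 arms: control, p38i (inhibitor during induction) and pre-p38i (inhibitor before induction only). All 12 induced groups received the same retroviral factors, and the control arm is the solvent arm of the methods, although the labels name no solvent. In the study's methods, days of induction are counted from the change to iCD1 medium, after the retroviral infection. The step from MEFs to day 1 therefore also spans infection and the change of medium. No source used here says whether the 2 libraries of a group came from separate embryos or cultures, so p-values measure only the spread between these libraries. Each culture is a mixture in which few cells become iPSCs, and in such bulk RNA fewer cells of a type and less RNA per cell cannot be told apart.

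The deposited values are whole numbers that added up to between 991287 and 992537 per library. They were read as TPM (transcript abundance scaled to a common total) rounded down, a scale per length on which levels of different genes can be compared, and a listed 0 can be any level under 1. Depth is unknown, so no counting interval can be given. Differences are on the log2(value + 1) scale from limma, fitted to the 13230 genes that averaged 1 or more over the libraries, and a gene is called where its Benjamini-Hochberg adjusted p is under 0.05. An exact permutation test of 2 libraries against 2 cannot go below 0.333, so the calls depend on limma's pooled estimate of the spread. All 5 fibroblast markers (Col1a1, Col1a2, Thy1, Pdgfrb and Vim) were detected in MEFs, where their values summed to 12261 to 13099, while the 6 pluripotent cell markers were at 0 and the 7 macrophage markers summed to 246 to 251. Quantile normalization, an alternative scaling, moved the median difference of all genes by -0.21 from MEFs to control day 1 and by 0.09, 0.12 and 0.10 in p38i minus control on days 1, 3 and 5. It moved the share of called genes that were higher from 65.9% to 47.5% in the step from MEFs, from 71.3% to 50.8% between control days 3 and 5, from 21.6% to 41.1%, 24.4% to 50.0% and 29.6% to 52.7% in p38i on days 1, 3 and 5, and from 66.7% to 50.7% in pre-p38i on day 3. Calls and directions are therefore also given under this scaling where they changed.

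All 8 genes stand in the table at the positions that GENCODE M21 gives in GRCm38. Dnmt1 lies on the minus strand of chromosome 9 (chr9:20907209-20959888), Uhrf1 on the plus strand of chromosome 17 (chr17:56303321-56323486), Dnmt3a at chr12:3806007-3914443, Dnmt3b at chr2:153649450-153687730 and Dnmt3l at chr10:78041947-78063622. Tet1 lies at chr10:62804570-62908996, Tet2 at chr3:133463679-133545139 and Tet3 at chr6:83362373-83459084. Exons of Dnmt3a and Tet2 overlap antisense genes by 133 and 43 bases, and those of Dnmt3l overlap Aire by 67 bases, but all 3 partners were listed at 0 in the 28 libraries. Gm5648, a copy of Uhrf1 among the annotated transcripts, shares 1590 bases at 98.3% identity and was also listed at 0 in every library. A listed 0 can be any level under 1, and the division of reads between Uhrf1 and this copy was not tested. Dnmt3c, the nearby relative of Dnmt3b that is known from the male germ line, was at 0 in every library.

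Uhrf1 and Dnmt1 moved together (r = 0.969 over 14 groups), so the sequence before their starts is shown with the letters that E2F factors, the regulators of genes for DNA replication, are known to prefer. The 4 forms searched, on both strands, were TTTCCCGC, TTTCGCGC, TTTGCCGC and TTTGGCGC, in the RefSeq promoter windows of GRCm38.p6, each with 250 bases before and 50 after a start. Such letters stood in 2.26% of the 32851 windows and in at least 1 window of 2.6% of the 27025 genes. Of the 8 genes, Uhrf1 and Dnmt1 held them, in 1 of 2 and 1 of 3 windows, and the other 6 genes did not. In Uhrf1 the match began 185 bases before the second start, on the plus strand at chr17:56304063-56304312, which contains 30 CpG in these 250 bases. The other Uhrf1 window, chr17:56303087-56303386, lies further upstream and holds no such letters, so this match is not before every Uhrf1 start. In Dnmt1 one match began 219 bases before the start of the window (chr9:20952824-20952853) and another at base 34 after it (chr9:20952574-20952603), both read on the minus strand, the first as the reverse complement GCGCGAAA. Of the 250 bases before the start of this window, 166 lie in annotated Dnmt1 exons. Another Dnmt1 window, chr9:20952930-20953229, lies further upstream, so the first match is not before every Dnmt1 start. Capitals mark the matched letters. These matches describe the sequence and do not show that a factor binds there.
Uhrf1 promoter: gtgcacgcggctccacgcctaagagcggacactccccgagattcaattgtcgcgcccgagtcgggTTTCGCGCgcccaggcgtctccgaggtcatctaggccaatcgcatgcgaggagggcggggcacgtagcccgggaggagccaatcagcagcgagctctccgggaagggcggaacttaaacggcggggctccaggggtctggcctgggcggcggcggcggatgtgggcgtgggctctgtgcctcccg
Dnmt1 before the start: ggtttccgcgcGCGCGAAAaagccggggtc
Dnmt1 after the start: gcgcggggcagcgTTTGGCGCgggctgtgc

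Uhrf1, the factor that reads hemimethylated DNA, showed the largest difference between p38i and control among the members detected in every library. In MEFs it stood at 62 and 64, and in p38i-treated MEFs at 83 and 88. In control cells it stood at 53 and 54 on day 1, 37 and 43 on day 3, 58 and 61 on day 5, before reaching 95 and 98 by day 7. The control level thus had a low on day 3 and ended above MEFs. In p38i the libraries read 50 and 47 on day 1, 31 and 33 on day 3, 38 and 35 on day 5, and 41 and 42 at the end. In pre-p38i they read 66 and 68, 73 and 70, 126 and 118, and 153 and 150 on the same days. On each of the 4 days every p38i library was under every control library, and every pre-p38i library was above it. In p38i the difference from control was -0.14 ± 0.07 (SE) on day 1, where it was not called (adjusted p = 0.174), -0.31 on day 3 (0.00213), -0.69 on day 5 (2.84e-07) and -1.20 by day 7 (1.42e-10). The day 7 level was 0.436 of control. In pre-p38i it was 0.32 (adjusted p = 0.00364), 0.83 (5.54e-08), 1.02 (1.49e-09) and 0.65 (4.23e-07) on the 4 days, a level up to 2.03 times control. When only the groups compared were fitted, the calls of p38i day 3 (adjusted p = 0.195) and pre-p38i days 1 and 3 (0.0603 and 0.0607) were lost. The p38i call on day 3 was lost without control day 3 replicate 2 (-0.20, adjusted p = 0.0585).

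Dnmt1, the methyltransferase that copies methylation onto new strands, stood in the same order of arms as Uhrf1 on days 5 and 7, with smaller differences from control on both days. It stood at 63 and 63 in MEFs and at 92 and 87 in p38i-treated MEFs. Control cells gave 74 and 69, 54 and 55, 68 and 73, and 91 and 87 on days 1, 3, 5 and 7. The p38i arm gave 68 and 71, then stayed low with 56 and 49, 58 and 52, and 52 and 56. The pre-p38i arm gave 73 and 75, 83 and 82, 117 and 114, and 122 and 119. Groups overlapped on day 1 in both arms and on day 3 in p38i, and separated on the later days. The p38i difference was -0.04 ± 0.07 on day 1 (adjusted p = 0.759), -0.06 on day 3 (0.604), -0.35 on day 5 (0.000535) and -0.71 on day 7 (1.32e-07), where the level was 0.611 of control. Under quantile normalization the uncalled differences of days 1 and 3 were 0.01 and 0.03. When only the groups compared were fitted, the p38i call of day 5 was lost (adjusted p = 0.117). The pre-p38i difference was 0.05 ± 0.07 on day 1 (adjusted p = 0.72), 0.59 on day 3 (3.7e-06), 0.71 on day 5 (2.26e-07) and 0.43 by day 7 (5.36e-05).

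Between these partners the balance changed as well. The ratio of the Uhrf1 value to the Dnmt1 value was 1.00 ± 0.0224 (SD, n = 2) in MEFs and 0.749 ± 0.0469 on control day 1. On day 7 it was 1.09 ± 0.0583 in control, 0.769 ± 0.0272 in p38i and 1.26 ± 0.00453 in pre-p38i, and the libraries of the 3 arms did not overlap. Ordered by mean, Uhrf1 was lowest on p38i day 3 (32) and highest on pre-p38i day 7 (151.5), and of the 13 pairs of neighbouring groups 2 overlapped. Dnmt1 ran from 52.5 on p38i day 3 to 120.5 on pre-p38i day 7, and 7 of its 13 neighbouring pairs overlapped, including the 4 lowest groups, p38i days 3, 7 and 5 and control day 3.

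**Figure D1:**
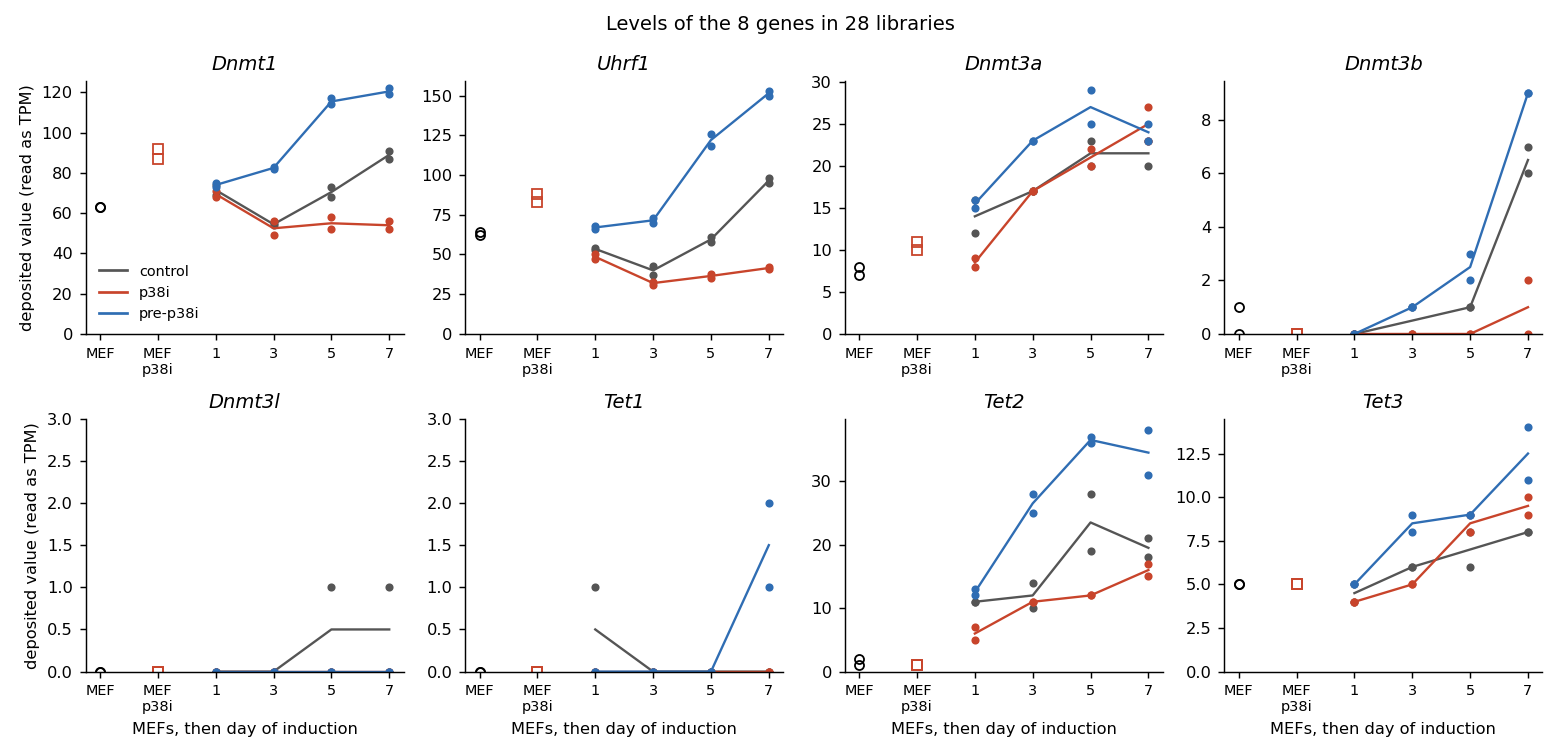
Deposited value (read as TPM) of each of the 8 genes in untreated and p38i-treated MEFs and on induction days 1, 3, 5 and 7. Points are libraries and lines join the means of 2; Uhrf1 on day 7 spans 41 and 42 in p38i, 95 and 98 in control and 150 and 153 in pre-p38i.

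Dnmt3a, a de novo methyltransferase, was higher on control day 1 than in MEFs, while on p38i day 1 it stood near the MEF level. It stood at 7 and 8 in MEFs and at 11 and 10 in p38i-treated MEFs. Control cells gave 16 and 12, 17 and 17, 20 and 23, and 20 and 23 on days 1, 3, 5 and 7. The p38i libraries gave 8 and 9 on day 1, then 17 and 17, 22 and 20, and 23 and 27. Day 1 of p38i lay below both control libraries, while later days overlapped with control. The pre-p38i libraries gave 16 and 15, 23 and 23, 25 and 29, and 23 and 25. The p38i difference on day 1 was -0.65 ± 0.13 (adjusted p = 0.00119), and on days 3, 5 and 7 it was 0.00, -0.03 and 0.21 with no call. When only the groups compared on day 1 were fitted, that day's call was lost (adjusted p = 0.183). In pre-p38i a difference was called on day 3 (0.42 ± 0.13, adjusted p = 0.0233), but not on days 1, 5 and 7 (0.15, 0.32 and 0.15). That call was lost on leaving out any of its 4 libraries (control day 3 replicate 1 or 2, pre-p38i day 3 replicate 1 or 2), with 0.42 each time and adjusted p from 0.0851 to 0.0991. Of 13 neighbouring pairs of groups 9 overlapped, which includes all of the 7 highest groups, from p38i day 5 (21) to pre-p38i day 5 (27).

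Dnmt3b, the de novo methyltransferase known from pluripotent and early embryonic cells, was above 3 only on day 7 of the control and pre-p38i arms. It was listed at 0 in 15 of the 28 libraries and at 1 in 6 of the others, among them MEF replicate 2, control day 3 replicate 1 and both libraries of pre-p38i day 3. On day 5 it stood at 1 and 1 in control, 0 and 0 in p38i, and 3 and 2 in pre-p38i. On day 7 it stood at 7 and 6 in control, 2 and 0 in p38i, and 9 and 9 in pre-p38i. Its mean of 1.57 over the 28 libraries passed the filter of 1 only through the control and pre-p38i libraries of that day. Dnmt3b calls in comparisons with those groups, and member counts and medians that include it, are therefore not independent of the filter. The 3 arms did not overlap on day 7. The p38i difference there was -2.11 ± 0.41 (adjusted p = 0.000483), a value that depends on the pseudocount because 1 of the libraries is at 0. In a fit of only the libraries compared this difference was not called (adjusted p = 0.142). The pre-p38i difference was 0.42 ± 0.41 (adjusted p = 0.478). As a share of the summed Dnmt3a and Dnmt3b values, Dnmt3b made up 23.3% ± 3.7 (SD, n = 2) in control on day 7 and 27.3% ± 1.17 in pre-p38i, against 8% and 0% in the 2 p38i libraries. The 6 pluripotent cell markers moved alongside on that day, with sums of 73 to 82 in control, 8 to 10 in p38i and 128 to 132 in pre-p38i, and their part in the Dnmt3b values was not tested. Dnmt3l, the stimulating relative, was at 0 in 26 libraries and at 1 in replicate 1 of control days 5 and 7, so it was not tested.

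On day 7, with Dnmt1 lower and Dnmt3a level with control, the make-up of methyltransferase transcripts differed in p38i. Dnmt3a made up 10.6% ± 0.786 (SD, n = 2) of the summed Dnmt values in MEFs. On day 7 its share was 18.4% ± 2.04 in control, 31.2% ± 1.88 in p38i and 15.6% ± 0.993 in pre-p38i. The p38i libraries, at 29.9% and 32.5%, were above all 4 others of that day. On day 1 the Dnmt3a share was lower in p38i, at 10.9% ± 0.512 against 16.3% ± 2.10 in control. On day 3 these arms overlapped, with 23.3% and 25.8% in p38i and 23.6% in both control libraries.

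Tet2, a dioxygenase without a CXXC domain of its own, was the tested member that changed most from MEFs to control day 1. It stood at 1 and 2 in MEFs and at 1 and 1 in p38i-treated MEFs, and at 11 and 11 on control day 1. Later control libraries gave 10 and 14 on day 3, 19 and 28 on day 5, then 21 and 18. The step from MEFs to day 1 was 2.29 ± 0.19 (adjusted p = 4.1e-09), and 1.66 under quantile normalization. In p38i Tet2 stood at 7 and 5 on day 1, then at 11 and 11, 12 and 12, and 15 and 17. In pre-p38i it stood at 13 and 12, 28 and 25, 36 and 37, and 38 and 31. No pre-p38i library overlapped with control on any of the 4 days, and p38i libraries were below control on days 1, 5 and 7. The p38i difference was called on day 1 (-0.79 ± 0.19, adjusted p = 0.0078) and day 5 (-0.89, 0.00205), but not on day 3 (-0.10) or day 7 (-0.27, adjusted p = 0.314). The pre-p38i difference was 0.17 on day 1 with no call, and 1.10 on day 3 (adjusted p = 0.000487), 0.64 on day 5 (0.0202) and 0.79 on day 7 (0.00441).

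Several Tet2 calls rested on single libraries of these pairs. On p38i day 1 the call was lost without control replicate 1 (-0.79, adjusted p = 0.0521) or p38i replicate 2 (-0.58, 0.125), and on p38i day 5 without control replicate 2 (-0.62, 0.058). On pre-p38i day 5 it was lost without control replicate 1 (0.37, adjusted p = 0.269), pre-p38i replicate 1 (0.66, 0.0738) or pre-p38i replicate 2 (0.62, 0.0932), and on day 7 without control replicate 2 (0.68, 0.0543) or pre-p38i replicate 1 (0.65, 0.0618). The pre-p38i call of Tet2 on day 3 held on leaving out each of its 4 libraries. In a fit of only those 4 libraries, however, that call was lost (adjusted p = 0.0978). In such fits the Tet2 calls of p38i days 1 and 5 (0.142 and 0.136) and pre-p38i days 5 and 7 (0.192 and 0.0727) were lost too. With a pseudocount of 0.1 the pre-p38i call of day 5 was also lost (0.0585). Of 13 neighbouring pairs of groups 8 overlapped, and the lowest groups, p38i-treated and untreated MEFs (1 and 1.5), stood apart from all induced groups.

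Tet3, the TET enzyme known from the oocyte and neurons, was the main TET transcript in MEFs, where it stood at 5 and 5 with and without p38i. Control cells gave 5 and 4, 6 and 6, 6 and 8, and 8 and 8 on days 1, 3, 5 and 7. The p38i libraries gave 4 and 4, 5 and 5, 9 and 8, and 9 and 10. The p38i and control libraries overlapped on days 1 and 5, and no p38i difference was called (-0.13, -0.22, 0.26 and 0.22 on days 1, 3, 5 and 7). Under quantile normalization the day 5 difference was 0.49 and was called (adjusted p = 0.012). The pre-p38i libraries gave 5 and 5, 8 and 9, 9 and 9, and 14 and 11. Differences were called on day 3 (0.44 ± 0.14, adjusted p = 0.0328) and day 7 (0.58 ± 0.14, 0.00421). When only the groups compared were fitted, both calls were lost (adjusted p = 0.0867 and 0.0985). Under quantile normalization the day 3 difference was 0.35 and was not called (adjusted p = 0.0857). The day 3 call was lost without any single library, with adjusted p of 0.116 and 0.105 without control replicates 1 and 2 and of 0.0653 and 0.191 without pre-p38i replicates 1 and 2. The day 7 call was lost without pre-p38i replicate 1 (0.42, adjusted p = 0.0813). Of 13 neighbouring pairs 11 overlapped, and pre-p38i day 7 stood apart at a mean of 12.5.

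Tet1, the TET enzyme of pluripotent cells, was at 0 in 25 libraries, at 1 in control day 1 replicate 2, and at 2 and 1 on pre-p38i day 7, and was not tested. Tet2 made up 22.6% ± 8.42 (SD, n = 2) of the summed Tet values in MEFs and 68.8% ± 0 on control day 1. The most abundant TET transcript thus changed from Tet3 to Tet2 between MEFs and control day 1. The sum of the 3 Tet values was 6.5 ± 0.707 in MEFs and, on day 7, 27.5 ± 2.12 in control, 25.5 ± 2.12 in p38i and 48.5 ± 7.78 in pre-p38i.

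In the control course, the question is how these genes move as MEFs are reprogrammed. From MEFs to day 1, 3 members were higher (Dnmt1, Dnmt3a and Tet2) and Uhrf1 was lower, 4 of the 6 tested, where 55.5% of all genes were called. Under quantile normalization 2 members were higher and 3 lower: the Dnmt3a step was 0.47 (adjusted p = 0.00257), Tet2 stayed higher, Uhrf1 stayed lower, and Tet3 (-0.48, 0.00686) and Dnmt3b (-0.98, 0.0194) were called lower as well. The Dnmt3a step was 0.81 ± 0.13 (adjusted p = 1.52e-05) without this scaling, and it was not called in a fit of these 4 libraries alone (0.0627). The Uhrf1 step was -0.23 ± 0.07 (adjusted p = 0.00592), and with the replicate block it was -0.20 and not called (0.0652). The Dnmt1 step of 0.18 ± 0.07 (adjusted p = 0.0276) was 0.07 under quantile normalization (0.349) and 0.16 with the replicate block (0.153), and it was also lost without MEF replicate 1 (0.18, 0.0842), MEF replicate 2 (0.18, 0.0841) or control day 1 replicate 1 (0.13, 0.203). From day 1 to day 3, Dnmt1 (-0.38, adjusted p = 9.19e-05) and Uhrf1 (-0.41, 4.25e-05) fell and Tet3 was called higher, 3 of 6 beside 44.5% of all genes. When only these groups were fitted, the calls of Uhrf1 and Tet3 were lost (adjusted p = 0.0737 and 0.134). The Tet3 value of 0.35 (adjusted p = 0.0483) became 0.22 without control day 1 replicate 2 (0.325) and 0.35 without control day 3 replicate 1 (0.13) or 2 (0.125), and 0.21 under quantile normalization (0.225).

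From day 3 to day 5, Dnmt1 (0.36), Uhrf1 (0.56) and Tet2 (0.91) rose, 3 of 6 beside 19.4% of all genes. In a fit of these 4 libraries alone all 3 calls were lost (adjusted p = 0.0858, 0.108 and 0.213). The Tet2 call was lost without control day 3 replicate 1 (0.68, adjusted p = 0.0585) or control day 5 replicate 2 (0.64, 0.0707). From day 5 to day 7, Dnmt1 (0.33), Uhrf1 (0.69) and Dnmt3b (1.90 ± 0.41, adjusted p = 0.00175) rose, 3 of 6 beside 26.7%. When only the groups compared were fitted, the Dnmt1 call was lost (adjusted p = 0.0672). With a pseudocount of 0.1 the Dnmt3b step was 2.58 and was not called (adjusted p = 0.145). Dnmt3b also passed the filter only through groups where it was high, control day 7 among them. Between day 1 and day 7 all 6 tested members were higher, beside 54.6% of all genes called in either direction, with differences from 0.31 (Dnmt1) to 2.90 (Dnmt3b). When only these groups were fitted, the Dnmt3a call was lost (adjusted p = 0.103). The S phase markers, 10 genes of DNA replication such as Mcm2 to Mcm7 and Rrm2, showed the same low, with sums of 887 to 896 in MEFs, 527 to 541 on day 3 and 861 to 920 on day 7. Fibroblast marker sums were lower at each step of this course and stood at 2923 to 3078 on day 7.

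Before induction, p38i-treated and untreated MEFs were compared to ask what the inhibitor does alone. Of the 6 tested members 3 were higher and none was lower, where 17.9% of all genes were called. These were Dnmt1 (0.50 ± 0.07, adjusted p = 2.22e-05), Uhrf1 (0.43 ± 0.07, 0.000111) and Dnmt3a (0.44 ± 0.13, 0.0194). The Dnmt3a call was lost without MEF replicate 1 (0.35, adjusted p = 0.149) or p38i-treated MEF replicate 1 (0.37, 0.141) and under quantile normalization (0.34, 0.0647). Summed S phase markers were 1014 to 1015 with p38i against 887 to 896 without, and 5 of the 10 were called higher. Macrophage markers summed to 175 to 182 against 246 to 251, with 4 of the 6 tested lower and a median difference of -1.09, and fibroblast markers to 9617 to 9743 against 12261 to 13099, with 3 of 5 lower and a median of -0.83. The part of these cells in the member values was not tested. In a fit of these 4 libraries alone only Dnmt1 was called.

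During induction with p38i, the question is how continued inhibition changes these genes on each day. On day 1, 2 of the 6 tested members were lower (Dnmt3a and Tet2), beside 12.6% of all genes called lower and 16.1% called in either direction. On day 3, 1 was lower (Uhrf1), beside 16.2% and 21.4%. On day 5, 3 were lower (Dnmt1, Uhrf1 and Tet2), beside 18.7% and 26.6%. On day 7, 3 were lower (Dnmt1, Uhrf1 and Dnmt3b), beside 17.6% and 34.1%. Dnmt3b passed the filter only through groups where it was high, control day 7 among them, so its call is not independent of the filter. No member was called higher on any day, but under quantile normalization Tet3 was on day 5 (0.49, adjusted p = 0.012), beside the same 9 calls of lower members. The median difference of the 6 tested members was -0.14, -0.16, -0.52 and -0.49 on the 4 days, against -0.08, -0.08, -0.08 and 0.00 over all genes. In fits of only the 4 libraries of each day, 4 calls were made instead of 9, and 1 of these 4, Dnmt3b on day 5, was new.

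After pretreatment, the question is what inhibition before induction leaves behind. On day 1, 1 of the 6 tested members was higher (Uhrf1), beside 5.40% of all genes called higher and 11.6% in either direction. On day 3, 5 were higher (all but Dnmt3b), beside 13.8% and 20.6%. Under quantile normalization 4 were, as the Tet3 difference was not called (0.35, adjusted p = 0.0857). On day 5, 3 were higher (Dnmt1, Uhrf1 and Tet2), beside 14.3% and 25.6%. On day 7, 4 were higher (Dnmt1, Uhrf1, Tet2 and Tet3), beside 15.4% and 29.9%. No member was called lower. The medians were 0.14, 0.54, 0.67 and 0.50, against 0.00, 0.07, 0.04 and 0.05 over all genes. In fits of only the 4 libraries of each day, 6 calls were made instead of 13. The p38i and pre-p38i comparisons share the control libraries, so a high or low control library moves them in opposite directions.

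**Figure D2:**
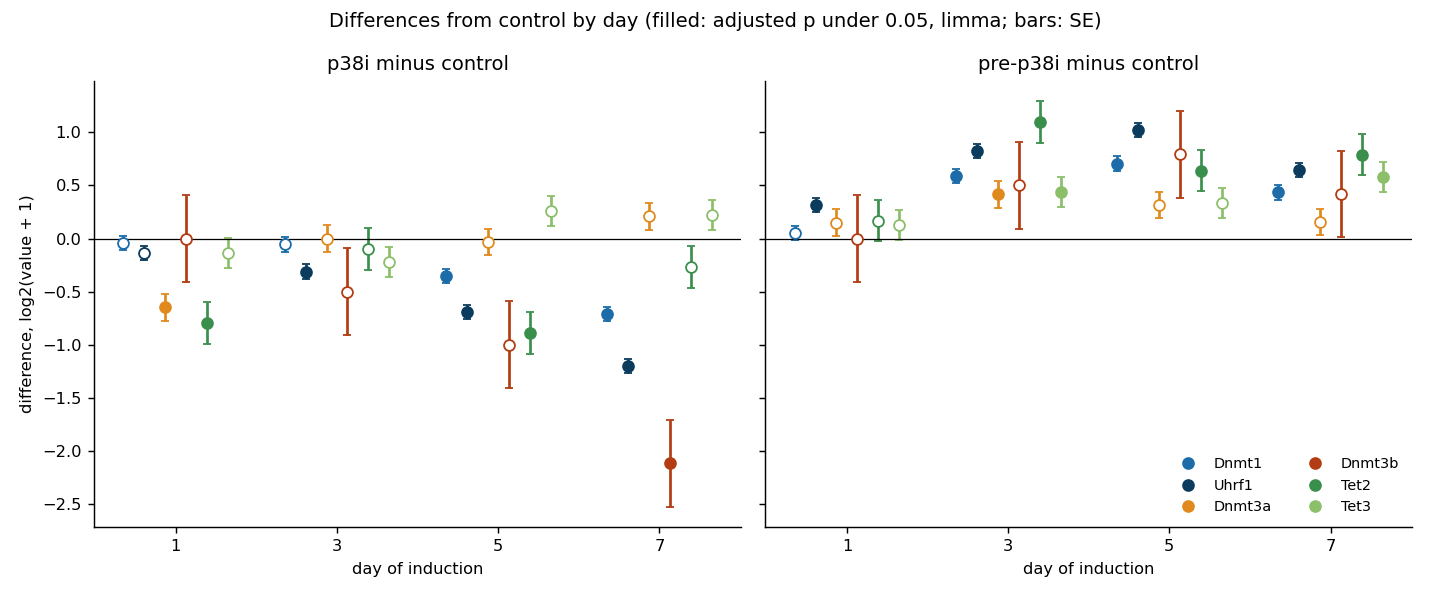
Difference from control on the log2(value + 1) scale for the 6 tested members on each day of induction, with standard errors, in p38i (left) and pre-p38i (right). Filled points had an adjusted p under 0.05 in limma; in p38i Uhrf1 goes from -0.14 on day 1 to -1.20 on day 7, and in pre-p38i every filled point is above 0.

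Averaged over the 4 days, 4 members were lower in p38i, where 47.9% of all genes were called: Uhrf1 (-0.58 ± 0.03), Dnmt1 (-0.29 ± 0.03), Dnmt3b (-0.90 ± 0.20) and Tet2 (-0.51 ± 0.10). Of the genes called in p38i 31.2% were higher, against 54.4% under quantile normalization, under which Uhrf1, Dnmt1 and Tet2 averaged -0.53, -0.23 and -0.39. In pre-p38i 5 were higher, where 45.0% were called: Uhrf1 (0.70 ± 0.03), Tet2 (0.67 ± 0.10), Dnmt1 (0.44 ± 0.03), Tet3 (0.37 ± 0.07) and Dnmt3a (0.26 ± 0.06). Dnmt3a and Tet3 averaged -0.12 and 0.03 in p38i, with no call (adjusted p = 0.13 and 0.748). Without control day 1 replicate 2 the Dnmt3a average was called (-0.17, adjusted p = 0.0273), and under quantile normalization that of Tet3 was (0.20, 0.0218). Dnmt3b averaged 0.43 in pre-p38i (adjusted p = 0.0964) and was called without control day 3 replicate 1 (0.55, 0.0357), under quantile normalization (0.45, 0.0375), and when the libraries of control and pre-p38i were fitted alone (0.43, 0.0304).

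The p38i and pre-p38i arms, which share no libraries, were compared to ask about the time of inhibition. Quantile normalization moved the median difference of all genes by 0.21 and 0.14 on days 3 and 5 here, and the share of called genes that were higher from 29.3% to 44.5%, 25.5% to 53.7% and 34.4% to 52.9% on days 1, 3 and 5. On day 1, 3 of the 6 tested members were lower in p38i (Dnmt3a, Uhrf1 and Tet2), beside 28.2% of all genes called. On day 3 it was 5 of 6, all but Dnmt3b, beside 42.2%, and on day 5 all but Tet3, beside 47.5%. On day 7 it was all but Dnmt3a, beside 54.3%. In fits of only the libraries compared, 16 calls were made instead of these 18. Lost were Tet2 on day 1 (adjusted p = 0.0888), Dnmt3a on day 5 (0.114), and Dnmt3b and Tet3 on day 7 (0.0768 and 0.174), and new were Tet3 on day 1 (0.0344) and Dnmt3b on day 3 (0.00158). A pseudocount of 0.1 also gave the Dnmt3b call on day 3 (adjusted p = 0.0321). Uhrf1 differed by -0.46, -1.14, -1.71 and -1.84 ± 0.07 on the 4 days and reached 0.279 of the pre-p38i level on day 7 (adjusted p = 3.15e-14). Dnmt1 differed by -0.09 with no call on day 1 and by -0.65, -1.06 and -1.14 on the later days. Tet2 differed by -0.96, -1.19, -1.53 and -1.06. The Tet3 call of day 7 (-0.36, adjusted p = 0.0397) was lost without p38i replicate 1 (-0.29, 0.194), p38i replicate 2 (-0.42, 0.0567) or pre-p38i replicate 1 (-0.19, 0.357), and under quantile normalization (-0.25, 0.13). The Dnmt3a calls of day 3 (-0.42, adjusted p = 0.0117) and day 5 (-0.35, 0.029) were lost under quantile normalization (-0.21 and -0.20, adjusted p = 0.183 and 0.169). They were also lost without p38i day 3 replicate 1 or pre-p38i day 3 replicate 1 or 2 (-0.42 each, adjusted p from 0.0507 to 0.0529), and without p38i day 5 replicate 2 (-0.28, 0.166) or pre-p38i day 5 replicate 2 (-0.24, 0.224).

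Whether the difference from control itself changed between day 1 and day 7 was tested as a difference of differences. In p38i, 4 of 6 members were called, beside 21.6% of all genes: it fell for Uhrf1 (-1.06 ± 0.09, adjusted p = 2.13e-07), Dnmt1 (-0.67 ± 0.09, 4.43e-05) and Dnmt3b (-2.11 ± 0.58, 0.0128), and rose for Dnmt3a (0.86 ± 0.18, 0.00174). The Dnmt3b call was lost without p38i day 7 replicate 2 (-1.32, adjusted p = 0.088) and when the pseudocount was 0.1 (-3.84, 0.136). When just the 8 libraries of these 4 groups were fitted, the calls of both Dnmt3b (adjusted p = 0.0926) and Dnmt3a (0.0573) were lost. In pre-p38i, 2 of 6 were called, beside 16.7%, Dnmt1 (0.38 ± 0.09, adjusted p = 0.00764) and Uhrf1 (0.33 ± 0.09, 0.0219). That Uhrf1 call was lost without control day 1 replicate 2 (0.31, 0.0638), control day 7 replicate 1 (0.30, 0.073), pre-p38i day 1 replicate 1 (0.31, 0.0702) or pre-p38i day 7 replicate 1 (0.31, 0.0646).

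Markers of the cell cycle and of other cells moved in the same comparisons. The summed S phase markers on day 7 were 861 to 920 in control, 437 to 463 in p38i and 1235 to 1253 in pre-p38i. In p38i 3, 6, 10 and 10 of the 10 were called lower on the 4 days, beside 12.6%, 16.2%, 18.7% and 17.6% of all genes. In pre-p38i 2, 10, 9 and 8 were called higher, beside 5.40%, 13.8%, 14.3% and 15.4%. The 6 markers of G2 and mitosis summed on day 7 to 621 to 624 in control, 311 to 316 in p38i and 963 to 977 in pre-p38i. Macrophage markers summed on day 7 to 173 to 180, 176 to 204 and 31 to 42 in the same order, and fibroblast markers to 2923 to 3078, 3852 to 3883 and 2100 to 2225. The 4 epithelial markers summed to 419 to 433, 190 to 207 and 808 to 843. In p38i on day 7, where 34.1% of all genes were called, 3 of the 6 tested macrophage markers were lower and 1 higher (median -0.69). In pre-p38i, where 29.9% were called, all 6 were lower (median -2.39). The part of these cells or of the cell cycle in the levels of Uhrf1, Dnmt1 and the other members was not tested.

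**Figure D3:**
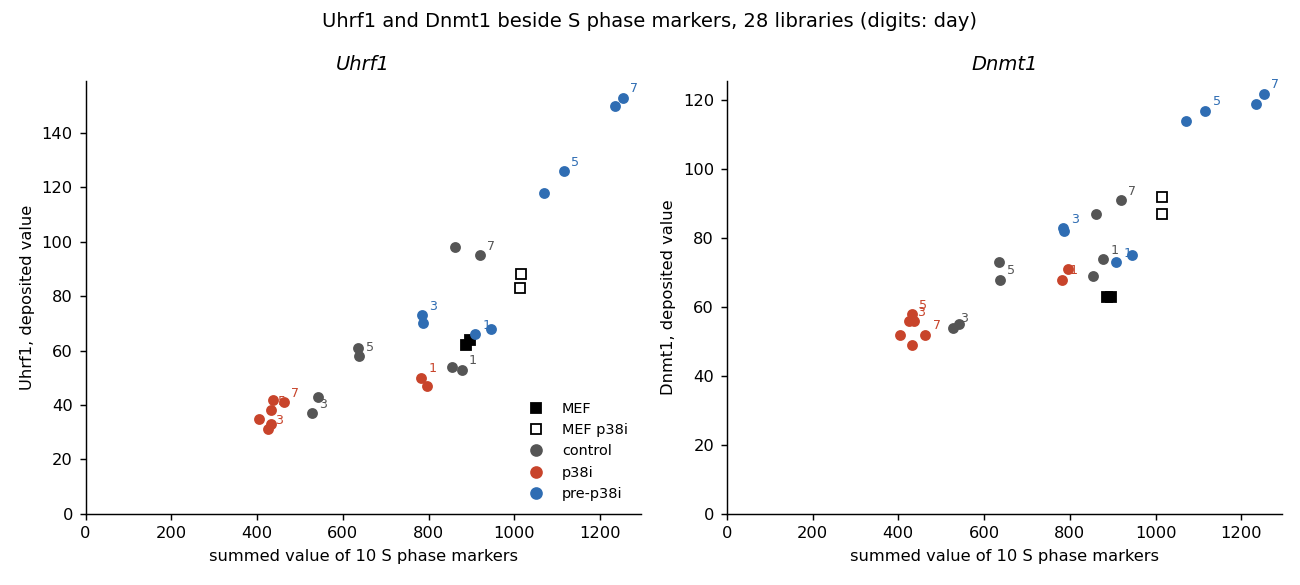
Deposited value of Uhrf1 (left) and Dnmt1 (right) against the summed value of 10 S phase markers, with 1 point per library and digits for the day of induction. The p38i libraries of days 3 to 7 lie between 405 and 463 on the horizontal axis with Uhrf1 from 31 to 42, and those of pre-p38i day 7 at 1235 and 1253 with Uhrf1 at 150 and 153.

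Across the 14 groups, correlations of mean log2 values are descriptions, since groups share treatments and days. Uhrf1 and Dnmt1 had r = 0.969, and Dnmt3a went with Tet2 (0.888) and Tet3 (0.830), while Dnmt3a with Uhrf1 had 0.218 and Tet2 with Uhrf1 0.265. Among the 10667 genes averaging 5 or more, the patterns most like Uhrf1 were those of Mcm7, a subunit of the replicative helicase (r = 0.991), Pold3, a subunit of DNA polymerase delta (0.98), and Skiv2l2 (0.979). Mcm7 is among the S phase markers above. For Dnmt1 they were Uhrf1 itself, Dtl (0.968) and Pold3 (0.967). For Dnmt3a they were Plce1 (0.975), Nr2f1 (0.974) and Gab1 (0.972), for Dnmt3b Rnf7 (0.978), Gm42566 (0.974) and Gm29084 (0.973), for Tet2 Stk38 (0.986), Ahsg (0.979) and Tmem243 (0.977), and for Tet3 Cdc42se2 (0.966), Cwc25 (0.962) and Vezf1 (0.954).

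A further 48 genes of the DNA methylation pathway were listed by role, of which 44 were tested. In p38i, 2, 3, 2 and 5 of them were higher and 3, 8, 13 and 18 lower on days 1, 3, 5 and 7, with medians of -0.11, -0.16, -0.21 and -0.24, against -0.08, -0.08, -0.08 and 0.00 over all genes. Those called in either direction were 11.4%, 25%, 34.1% and 52.3% of the 44, beside 16.1%, 21.4%, 26.6% and 34.1% of all genes. In pre-p38i, 4, 15, 20 and 16 were higher and 4, 2, 2 and 3 lower, with medians of 0.10, 0.21, 0.18 and 0.19, against 0.00, 0.07, 0.04 and 0.05 over all genes. These were 18.2%, 38.6%, 50% and 43.2% of the 44, beside 11.6%, 20.6%, 25.6% and 29.9%. In fits of only the libraries compared, 25 calls were made instead of 54 in p38i and 20 instead of 66 in pre-p38i.

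Of the 6 maintenance partners (Uhrf2, Hells, Cdca7, Usp7, Pcna and Lig1), 0, 1, 2 and 6 were lower in p38i on days 1, 3, 5 and 7, and 1, 5, 6 and 4 were higher in pre-p38i. Of all genes, 12.6%, 16.2%, 18.7% and 17.6% were called lower in p38i and 5.40%, 13.8%, 14.3% and 15.4% higher in pre-p38i. The medians of these partners on day 7 were -0.76 in p38i and 0.44 in pre-p38i. Lig1, the ligase that joins fragments of the lagging strand, stood on day 7 at 70 and 67 in control, 34 and 38 in p38i, and 106 and 99 in pre-p38i. The Lig1 arms did not overlap, with differences of -0.91 ± 0.07 (adjusted p = 1.78e-08) in p38i and 0.57 ± 0.07 in pre-p38i. Cdca7, the partner of the chromatin remodeler HELLS, stood at 34 and 27, 13 and 14, and 49 and 46 in the same order. Hells itself differed in p38i by -1.25 ± 0.20 on day 7 (adjusted p = 9.25e-05). Pcna, the sliding clamp, stood at 264 and 260, 170 and 174, and 336 and 332, without overlap.

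Of the 7 tested de novo partners and repressors, 2, 1, 3 and 3 were lower and 0, 0, 0 and 1 higher in p38i on days 1, 3, 5 and 7. In pre-p38i 0, 2, 3 and 4 were higher and 0, 0, 0 and 1 lower. The shares of all genes are those given at the end of this paragraph. In this list Zfp57, a zinc finger protein that protects imprinted methylation, was lower in p38i on all 4 days. Its libraries gave 53 and 51, 121 and 113, 185 and 158, and 130 and 142 in control, and 35 and 30, 56 and 57, 82 and 72, and 91 and 98 in p38i. The groups were apart on each day, with an average difference of -0.84 (adjusted p = 4.31e-10). Mtr, methionine synthase of the S-adenosylmethionine cycle that supplies the methyl group, was also lower on all 4 days, by -0.55 on average (adjusted p = 7.41e-11), with 45 and 46 in p38i against 65 and 64 in control on day 7. Of the 4 genes of that cycle, 1, 2, 2 and 3 were lower in p38i and 0, 2, 4 and 1 higher in pre-p38i on days 1, 3, 5 and 7. Of all genes, 12.6%, 16.2%, 18.7% and 17.6% were called lower in p38i and 5.40%, 13.8%, 14.3% and 15.4% higher in pre-p38i.

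Of the 14 tested genes listed for removal of oxidised bases, 1, 1, 1 and 1 were higher and 0, 3, 4 and 4 lower in p38i on days 1, 3, 5 and 7. In pre-p38i 2, 4, 5 and 4 were higher and 3, 1, 1 and 1 lower. Of all genes, 16.1%, 21.4%, 26.6% and 34.1% were called in either direction in p38i, beside 11.6%, 20.6%, 25.6% and 29.9% in pre-p38i. In this list Gadd45a, a stress gene linked to demethylation, went the other way. It stood on day 7 at 89 and 96 in control, 142 and 152 in p38i, and 62 and 51 in pre-p38i. Gadd45a was higher in p38i (average 0.40, adjusted p = 1.99e-07) and lower in pre-p38i (-0.53, 5.02e-09) on all 4 days. Apobec1, a cytidine deaminase, was lower in p38i on days 3, 5 and 7, with 55 and 60 in control and 33 and 34 in p38i on day 7. Of the 7 methyl-CpG readers, 1, 1, 0 and 2 were higher and 0, 1, 2 and 1 lower in p38i on days 1, 3, 5 and 7. In the average of the 4 days 2 were higher and 4 lower, with a median of -0.11, where 47.9% of all genes were called and their median was -0.07. Of these, Zbtb38 was lower in p38i on days 3, 5 and 7 (average -0.48, adjusted p = 8.74e-06). Zbtb4 was lower in pre-p38i on days 3, 5 and 7 (average -0.61, adjusted p = 4.5e-07), with 11 and 13 in control and 6 and 6 in pre-p38i on day 7. Of the 6 tested TET partners and cofactor genes 0, 1, 1 and 1 were higher in p38i on the 4 days and 1 was lower, on day 7. In pre-p38i 1, 2, 2 and 2 of them were higher. Of all genes, 16.1%, 21.4%, 26.6% and 34.1% were called in either direction in p38i, and 11.6%, 20.6%, 25.6% and 29.9% in pre-p38i.

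**Figure D4:**
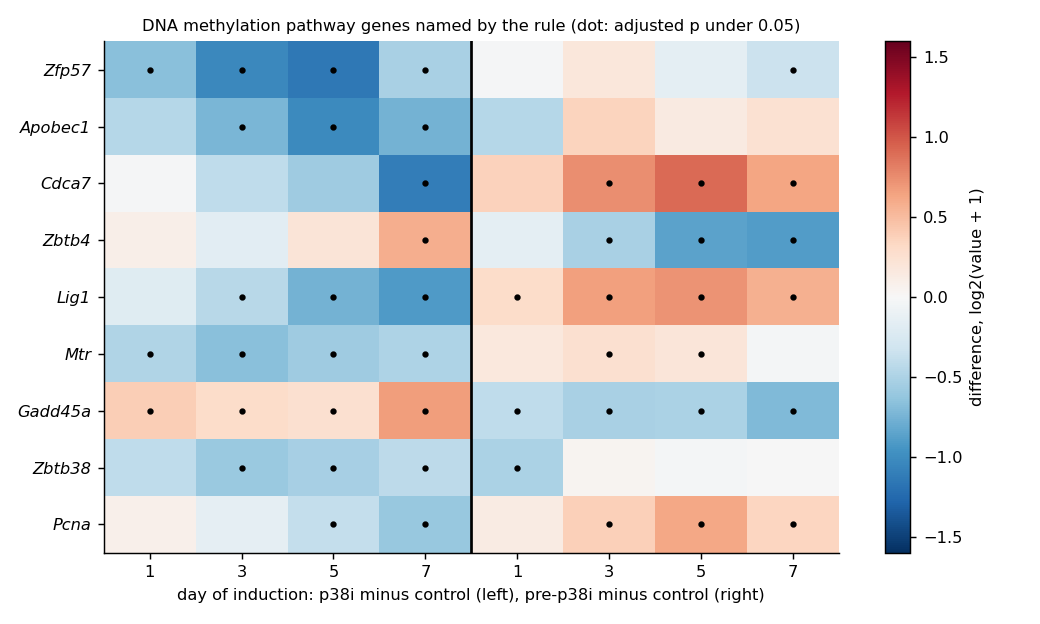
Difference from control on the log2(value + 1) scale for the 9 pathway genes named by the rule, in p38i (left 4 columns) and pre-p38i (right 4 columns) on days 1, 3, 5 and 7. Dots mark an adjusted p under 0.05; Lig1 on day 7 is -0.91 in p38i and 0.57 in pre-p38i.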

How the data were processed

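Messenger RNA of 28 libraries was sequenced by the authors, who deposited 1 table of a whole-number score per gene and library. The deposited score is read as TPM that the authors rounded down, which is inferred from the totals. Depth is unknown, and precision is that of 2 libraries per group. The submitters' processing notes list bcl2fastq, Bowtie2 2.2.5, RSEM 1.3.0, mm10 and hg38, with no role given. Neither strand nor annotation is given in the sources used here.

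Groups were taken from the sample labels. Values were analysed as log2(value + 1) with limma 3.58.1 (eBayes with a trend) in R 4.3.3, with all 14 groups in a single model without a replicate block, for genes averaging 1 or more, and Benjamini-Hochberg adjustment over all 13230 genes in each comparison. The fit was tested on simulated data. Where a fit left out a library, the remaining one was assumed to vary like the other groups. The 8 members and the lists of pathway and marker genes were chosen with earlier results of these data known. All members are named in every comparison. Pathway genes are named if called on at least 3 of 4 days in 1 direction in an arm, with a difference of at least 0.58 and no overlap between groups on at least 1 of them (at most 12, by the average over days). Genes of like pattern are the 3 with the highest Pearson correlation over groups.

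Copies of at least 95% identity over 200 bases were searched with BLAST 2.17.0+ in GENCODE M21 transcripts, where 99.6% of the table's identifiers are found. Plots were made with matplotlib 3.10.9. Alternatives were pseudocounts of 0.1, 0.5 added for rounding, no filter, a minimum mean of 5, only the groups compared, a replicate block, quantile normalization, and leaving out each library. Protein sequences and all other assays were not analysed here.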

Additional observations from a re-analysis of the deposited data

Results flagged for a closer look

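Groups of 2 libraries are too small to test for an outlying library. For 6 results the difference from control differed between day 1 and day 7 by a test of that difference itself (limma, adjusted p under 0.05). In p38i these were Dnmt1 (-0.67 on the log2 scale), Dnmt3a (0.86), Dnmt3b (-2.11) and Uhrf1 (-1.06). For Dnmt3a the p38i libraries were lower on day 1 (8 and 9 against 16 and 12) and overlapped with control on day 7 (23 and 27 against 20 and 23), whereas Dnmt1 and Uhrf1 began near control and ended lower. In pre-p38i they were Dnmt1 (0.38) and Uhrf1 (0.33). The same control libraries enter both sets.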

How the results depend on the processing

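Fitting only the groups compared changed the counts of calls most: 10 rather than 19 for members in the control course, 1 rather than 3 in p38i-treated MEFs, 4 rather than 9 in p38i, 6 rather than 13 in pre-p38i, 25 rather than 54 for pathway genes in p38i and 20 rather than 66 in pre-p38i. Between p38i and pre-p38i it gave 16 rather than 18, and for the change from day 1 to day 7 it gave 4 rather than 6. This fit estimates the spread from 4 to 16 libraries instead of 28. Under the other settings each count of calls was within 1.5 times its value. Replicate numbers were not found to pair the libraries: deviations of same-numbered libraries correlated between -0.0838 and 0.0874 over 91 pairs of groups. With the replicate block, 16 rather than 19 member calls were made in the control course, 9 in p38i and 12 rather than 13 in pre-p38i. No called member result changed direction under any setting. Of 132 results for single members 14 changed sign, all of them near 0 and uncalled. Under quantile normalization these were Tet3 from control day 3 to 5 (-0.00090), p38i minus control for Dnmt1 on days 1 and 3 (0.013 and 0.033), Tet3 on day 1 (0.031), Tet2 on day 3 (0.063) and Dnmt3a on day 5 (0.072), Tet3 in p38i minus pre-p38i on day 5 (0.19) and the day 7 less day 1 change of Dnmt3a in pre-p38i (-0.058). With the replicate block it was Tet2 from control day 1 to 3 (-0.037). Leaving out 1 library each gave ranges of -0.13 to 0.32 for Tet2 from control day 1 to 3 and -0.50 to 0.032 from day 5 to 7. In p38i minus control they were -0.090 to 0.0099 for Dnmt1 on day 1, -0.15 to 0.039 for Dnmt1 and -0.32 to 0.13 for Tet2 on day 3, -0.13 to 0.066 for Dnmt3a on day 5, and -0.014 to 0.076 for the Tet3 average. In pre-p38i minus control on day 1 they were -0.00013 to 0.099 for Dnmt1 and -0.044 to 0.34 for Dnmt3a, whose change to day 7 gave -0.19 to 0.20. In p38i minus pre-p38i on day 7 they were -0.058 to 0.16 for Dnmt3a. The causes of these changes were not tested. Whole-number values set the limits for genes near 0 (Dnmt3b, Dnmt3l and Tet1), and 2 libraries per group those of every test.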

Other observations

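Among the other pathway genes, the step from MEFs to control day 1 held some of the widest differences of the list (these genes were picked after their values were seen). Mtr, methionine synthase, averaged 13.5 in MEFs and 90 on day 1, a difference of 2.65 ± 0.07 (SE, log2 scale, limma adjusted p = 1.77e-17), and was lower again by day 7. Zfp57, which protects imprints, averaged 17.5 and 52 (1.52 ± 0.11), and Idh1, an isocitrate dehydrogenase that makes the 2-oxoglutarate used by TET enzymes, 103.5 and 284 (1.45 ± 0.05). In the same step Gadd45b (-1.98 ± 0.22), Gadd45g (-1.76 ± 0.12) and Cxxc5 (-1.73 ± 0.20) were lower, whereas Gadd45a was higher (0.90 ± 0.08). Of the 44 pathway genes tested, 15 were higher and 13 lower in this step, 63.6% beside 55.5% of all genes, with a median of 0.04 against 0.14. Quantile normalization moved the median difference of all genes by -0.21 there. Single genes can move by more, as Tet2 did from 2.29 to 1.66, and values of the genes named here under that scaling are not given.

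Dppa3, known from the oocyte and pluripotent cells for limiting UHRF1, was listed at 0 in all libraries except control day 7 replicate 2 (1) and the 2 libraries of pre-p38i day 7 (2 and 3).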
